A study of Mus musculus with 6 samples.

Results

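Nonsense-mediated decay (NMD) factors were followed as 8 genes, Upf1, Upf2, Upf3a, Upf3b, Smg1, Smg5, Smg6 and Smg9, taken by symbol from a table of 23281 genes. All 8 were found and all 8 passed the minimum of 100 reads on average per library. The cells were mouse embryonic stem cells, female and of strain background 129S X Cast, grown in ES medium. On the 129S allele a TetOn promoter stood in place of the endogenous Xist promoter, and a Bgl stem-loop had been put into the 3′ end of Xist. The sample titles call the line BglHalo_Xist, and the labels used here say no more of the Halo part. All 6 groups were of this line, were pre-plated to remove feeder cells, received doxycycline from induction to harvest, and were labelled for 4 h with 4-thiouridine (4sU), a uridine analogue that enters new RNA. The groups differed in the time in 4sU-free medium with doxycycline and excess uridine, which was 0, 30, 60, 90, 120 or 150 min (the 0 min cells were not washed out). Induction, labelling and washout were staggered to give a common harvest. Each time was represented by 1 library of nuclear RNA with no replicate, so every p-value below reflects how far 6 libraries scatter about a straight line on time, not how cultures vary. Cells without doxycycline and cells without 4sU were not analysed here, so no background measured in unlabelled RNA can be set beside the values.

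NMD removes mRNAs on which a ribosome stops too early, such as those with a stop codon ahead of an exon junction, and it also adjusts the level of many ordinary mRNAs. UPF1 is the RNA helicase at its centre, UPF2 and the UPF3 proteins connect UPF1 to the exon junction complex, the kinase SMG1 acts in a complex with SMG8 and SMG9 to phosphorylate UPF1, and SMG5 and SMG6 act on the phosphorylated helicase. Many of these factors are encoded by mRNAs that are themselves NMD targets, which gives the pathway a feedback on its own components. That decay needs translation and is a cytoplasmic event, whereas the RNA measured here came from nuclei.

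After iodoacetamide treatment, 4sU is read as C in place of T, so only the T positions of a transcript report label. The first 90 coding bases of 3 factors, from the GENCODE M21 transcripts, are shown because Smg5 and Upf1 stand at the ends of the order of label loss fitted with all 6 libraries and Smg1 has the most T-rich transcript of the 8. Capitals mark every T.
Upf1: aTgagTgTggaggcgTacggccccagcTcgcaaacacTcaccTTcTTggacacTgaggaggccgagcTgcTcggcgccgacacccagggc
Smg5: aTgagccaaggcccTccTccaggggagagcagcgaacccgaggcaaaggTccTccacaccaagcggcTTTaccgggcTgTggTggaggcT
Smg1: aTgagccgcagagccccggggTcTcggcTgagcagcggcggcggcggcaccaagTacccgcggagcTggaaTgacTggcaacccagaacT
The windows hold 13 T positions in Upf1, 12 in Smg5 and 9 in Smg1. Over the whole coding transcript, T made up 20.1% of Upf1, 20.5% of Smg5 and 27.1% of Smg1, and the other 5 factors lay between 18.3% (Smg9) and 23.7% (Upf2). The median over 11301 coding genes tested was 24.2%, with an interquartile range of 21.8 to 26.8%.

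In the mm10 genome, Upf1 lies on the minus strand at chr8:70331525-70353278 and Upf3a on the plus strand at chr8:13785615-13799193. Upf2 lies on the plus strand at chr2:5951469-6056703 and Upf3b on the minus strand at chrX:37091678-37110322, on the same chromosome as Xist. Smg1 lies on the minus strand at chr7:118131308-118243670 and Smg9 on the plus strand at chr7:24399619-24422778. Smg5 lies on the plus strand at chr3:88336260-88362338 and Smg6, the longest gene of the 8 with a span of 239 kb, on the plus strand at chr11:74925823-75164448. The Upf1 gene overlaps the coding genes Cers1 and Gdf1 on the opposite strand. There Smg6 overlaps Srr and also antisense, snRNA and pseudogene models, and Smg1 overlaps the snoRNA gene Gm25683. The library kit keeps strand, but no source used here states whether the counting used strand, so reads of those overlaps may not be told apart. Smg1 also overlaps the gene model Gm45084 on the same strand, which strand cannot separate.

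Sequence features that are known to attract NMD were counted in the annotated main transcripts of the 8 factors and of all coding genes tested. A 3′ UTR longer than 1000 nt was present in 4 of 8 (Upf2, Smg1, Smg5 and Smg6), against 49.4% of genes tested. At least 1 ATG in the leader before the start codon was present in 4 of 8 (Upf2, Smg1, Smg5 and Smg9), against 48.5%. An exon junction more than 50 nt after the stop codon was present in 0 of 8, against 0.327%. Main transcripts were taken only from those annotated as protein coding, which left out those annotated as NMD targets. That choice held both values near 0 in advance, so they are not read as a result. An additional transcript annotated as an NMD target was listed for 3 of 8 (Smg1, Smg5 and Smg6), against 29.4%. The longest 3′ UTR was that of Smg1 at 4233 nt and the shortest that of Smg9 at 400 nt. These counts of 8 genes are a description.

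Libraries held 18558073 to 28535162 reads. Over all genes, 4.05, 2.69, 4.11, 2.57, 1.55 and 1.17% of covered T positions read as C at 0, 30, 60, 90, 120 and 150 min, so the 60 min library stood well above the 30 min library. The 8 markers of pluripotent cells summed to 2585 to 3037 CPM (counts per library size with TMM scaling), and the 12 markers of fibroblast feeder cells to 345 to 529 CPM, highest at 120 min and lowest at 90 min, with 0 of the 12 at zero reads over the series. The part of feeder RNA in the results was not tested. Columns of the table carry a bare number or none, and were tied to times by the number in the sample titles.

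The labelled share of reads, which is the authors' modelled fraction of a gene's reads that come from RNA made during the pulse, fell for 7 of the 8 NMD factors and did not pass the test for Upf1 (limma, Benjamini-Hochberg adjusted over 11462 genes). In the same test 52.3% of all genes fell and 1.19% rose. Among the 7, half-lives of labelled nuclear RNA ran from 83.5 min for Smg5 to 182 min for Upf3b. The median rate of loss was 0.318 per h over the 8 factors and 0.247 per h over all genes tested, whose interquartile range of 0.0517 to 0.493 per h held 7 of the 8 factors and left out Smg5. Without the 150 min library 3 of the 8 factors (Smg1, Smg5 and Upf3a) and 3594 genes fell. Without the 30 min library 4 factors and 5354 genes fell, and without the 120 min library 4 factors and 5088 genes. A half-life is ln 2 over the rate of fall of the natural log of the labelled share, and takes the level of the RNA as constant. Because the RNA is nuclear, it covers export and processing as well as decay, and these were not told apart. It is thus not a measure of mRNA stability in the whole cell. For rates of the labelled share, ± and the range at 1 SE use the ordinary SE of the line. The limma p-values use a moderated SE, 0.0881 to 0.0984 per h over the 8 factors. It was larger than the ordinary SE for each factor, so those ranges are narrower than the moderated SE would give.

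**Figure D1:**
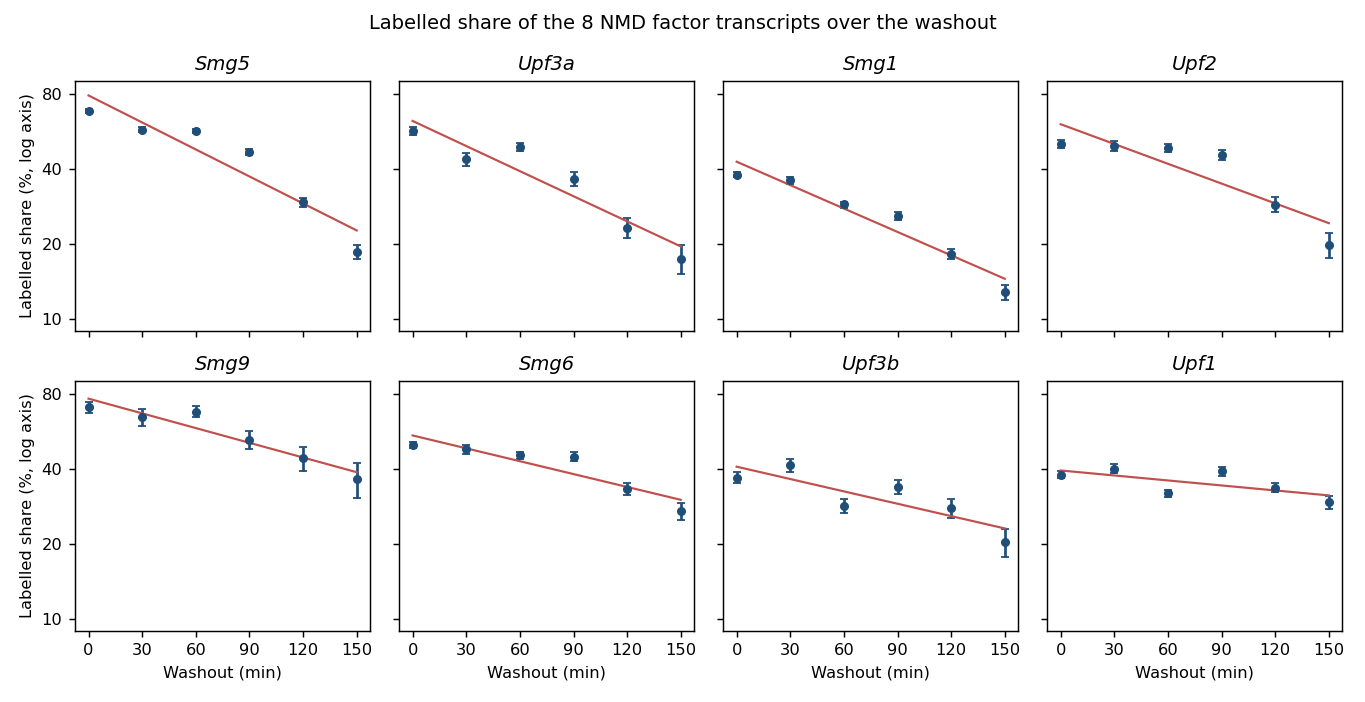
Labelled share of reads (percent, log axis) against washout time (min) for each of the 8 NMD factors. Points are posterior means of 1 library each, bars run from the 5% to the 95% posterior quantile, and red lines are fitted lines; Smg5 goes from 68.2% to 18.6% while Upf1 goes from 38.0% to 29.4%.

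Upf1, the helicase, kept most of its modelled labelled share. The part of its covered T positions read as C went from 3.87% at 0 min to 1.42% at 150 min, against 4.05 and 1.17% over all genes. The labelled share of Upf1 was 38.0, 40.2, 32.0, 39.1, 33.7 and 29.4% at 0, 30, 60, 90, 120 and 150 min. The shares at 30 and 90 min were the 2 above the starting share, and the 150 min library was the lowest, with 77.3% of the starting share left. The rate was 0.092 ± 0.048 per h (SE of the line through 6 libraries; limma adjusted p = 0.409), which places Upf1 at percentile 30.2 of all genes tested. Leaving out any 1 library gave rates between 0.0531 and 0.115 per h, none of which passed the test. No half-life is given for a rate that did not pass.

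UPF2 and the UPF3 proteins bridge UPF1 and the exon junction complex. With all 6 libraries the rate intervals between their 3 mRNAs all held 0, which does not show that the rates are alike. Upf2 had labelled shares of 50.6, 49.5, 48.6, 45.5, 28.8 and 19.8%, a plateau to 90 min followed by 2 low libraries. The median share over all genes tested took a like course, at 46.8, 45.8, 44.5, 39.3, 27.7 and 21.1%. The Upf2 rate was 0.365 ± 0.097 per h, with half-life 114 min (90.0 to 155 min at 1 SE; limma adjusted p = 0.00532). The 150 min library decided that call, since without it the rate was 0.242 per h with limma adjusted p = 0.150.

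Upf3a, which can act as a weaker partner or an antagonist of Upf3b in NMD, had labelled shares of 56.8, 43.9, 49.1, 36.6, 23.2 and 17.5%. Its highest value was at 0 min and its lowest at 150 min, with the 60 min library above the 30 min library. The rate was 0.463 ± 0.081 per h, with half-life 89.8 min (76.4 to 109 min at 1 SE; limma adjusted p = 0.000715). The fall of the Upf3a labelled share passed the test in each of its alternatives, leaving out any library included.

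Upf3b, its X-linked paralogue, had labelled shares of 37.0, 41.4, 28.5, 34.0, 27.9 and 20.4%. The 30 min library was the highest and the 60 min library lay below the 90 min library, so the values did not fall in time order. The rate was 0.228 ± 0.072 per h, with half-life 182 min (139 to 267 min at 1 SE; limma adjusted p = 0.0489). This call was at the edge of the threshold: it was lost without the 0, 30, 120 or 150 min library (limma adjusted p = 0.0775, 0.189, 0.107 and 0.383), where the rate was 0.288, 0.197, 0.246 and 0.152 per h, and with a minimum of 10 reads in place of 100 (limma adjusted p = 0.0717).

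SMG1 is the kinase that phosphorylates UPF1, and the modelled labelled share of its mRNA fell steadily. Smg1 had labelled shares of 38.0, 36.0, 28.8, 26.0, 18.3 and 12.9%, each lower than the one before. The rate was 0.432 ± 0.056 per h, with half-life 96.3 min (85.3 to 111 min at 1 SE; limma adjusted p = 0.000811), and the call on the labelled share held in each alternative run. Smg1 and Upf1 started at the same labelled share and ended at 12.9% and 29.4%.

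SMG9, a regulator of SMG1 within its complex, had the most labelled mRNA of the 8 at 0 min. Smg9 had labelled shares of 70.9, 64.8, 67.9, 52.4, 44.1 and 36.4%, with a wide posterior range of 30.6 to 42.3% at 150 min, where it had 336 reads. The rate was 0.271 ± 0.045 per h, with half-life 153 min (132 to 184 min at 1 SE; limma adjusted p = 0.0165). The fall of Smg9 was not called without the 30, 120 or 150 min library (limma adjusted p = 0.0517, 0.0739 and 0.152), where the rate was 0.279, 0.269 and 0.232 per h.

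SMG5, an adaptor that brings decay enzymes and a phosphatase to UPF1, is encoded by the mRNA with the highest fitted rate with all 6 libraries. Smg5 had labelled shares of 68.2, 57.5, 57.0, 46.9, 29.4 and 18.6%, falling at each step, although only slightly from 30 to 60 min. The rate was 0.498 ± 0.092 per h, with half-life 83.5 min (70.5 to 102 min at 1 SE; limma adjusted p = 0.000501), at percentile 75.3 of all genes tested. That half-life lies close to the median of 86.9 min among all genes that fell, and the call on the labelled share held in each alternative run.

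SMG6 is the endonuclease that cuts NMD targets near the stop codon. Smg6 had labelled shares of 49.9, 48.0, 45.5, 44.8, 33.4 and 27.1%, also falling at each step, with most of the fall after 90 min. The rate was 0.237 ± 0.052 per h, with half-life 175 min (144 to 225 min at 1 SE; limma adjusted p = 0.0343). The call was lost without the 0, 30, 120 or 150 min library (limma adjusted p = 0.0711, 0.101, 0.129 and 0.293), where the rate was 0.291, 0.239, 0.233 and 0.175 per h.

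**Figure D2:**
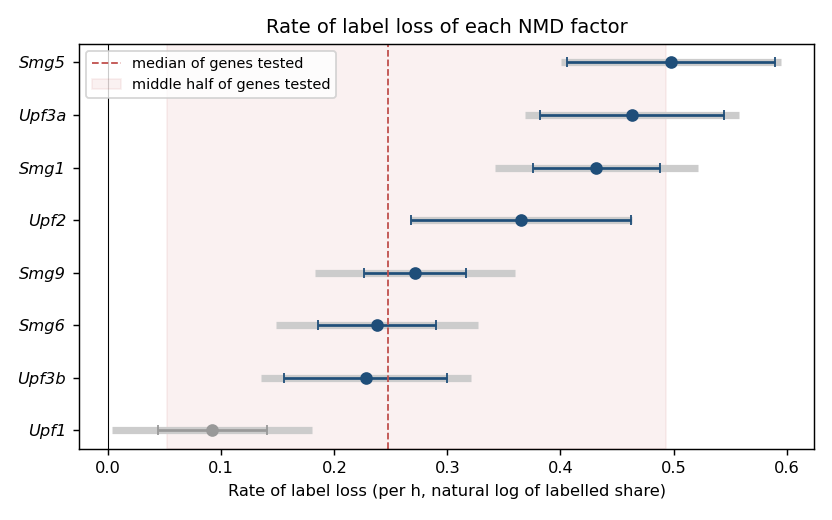
Rate of label loss (per h) of the 8 NMD factors in order. Points are fitted rates, dark bars ordinary SE and grey bars limma's moderated SE, the dashed line and band are the median (0.247 per h) and interquartile range of all genes tested, and the grey point is Upf1, which did not pass the test.

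The order of the rates was Smg5, Upf3a, Smg1, Upf2, Smg9, Smg6, Upf3b and Upf1. First place was not fixed: without the 150 min library Upf3a had 0.395 and Smg5 0.378 per h, with labelled abundance in place of the share Upf3a and Smg1 both had 0.467 and Smg5 0.448 per h, and with posterior weights Smg1 had 0.356 and Smg5 0.352 per h. Upf1 stayed last in each alternative run. Differences between members were measured within libraries, as the slope on time of the difference in ln labelled share, with a 95% interval from 4 residual degrees of freedom. Of 28 pairs, 15 had an interval that left out 0 (not adjusted over pairs). The same share was not computed over pairs of other genes, so the count is a description and not a trait of these factors. Among the 7 pairs of neighbours in the order, this was so for 1, Upf3b against Upf1, with a difference of 0.136 ± 0.030 per h (SE; interval 0.0538 to 0.218). That interval left out 0 without any 1 library, although its lower end without the 150 min library was only 0.00026 per h. The intervals of the other 6 neighbour pairs held 0.

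Upf1 lost label more slowly than 6 of the other 7 factors by this measure, the exception being Smg9, with a difference of 0.179 per h (interval -0.0243 to 0.383). Smg5 exceeded Upf1 by 0.406 ± 0.090 per h (interval 0.156 to 0.655), but without the 150 min library the interval was -0.0481 to 0.697. Between the SMG1 kinase and the SMG6 endonuclease the difference was 0.194 ± 0.017 per h (interval 0.146 to 0.243), and between Smg5 and Upf2 it was 0.133 ± 0.019 per h (interval 0.0813 to 0.185). Those pairs had the smallest SEs of all 28, and their intervals with a library left out are not given here. The paralogues Upf3a and Upf3b differed by 0.235 ± 0.109 per h with an interval that held 0 (-0.068 to 0.538), and without the 60 min library by 0.210 per h with one that left out 0 (0.00933 to 0.411). The number of pairs that left out 0 was 8 without the 0 min library, 9 without 120 min and 5 without 150 min.

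At 90 min, 4 of the 8 factors had over 75% of their starting labelled share, as had 65.1% of all genes tested. The median left at 90 min was 89.8% over all genes tested and 66.1% over those that fell. The 4 factors were Upf1 with 102.9%, Upf3b with 92.0%, Upf2 with 90.0% and Smg6 with 89.8%. From 90 to 150 min the share of Upf2 went to 43.4% of its 90 min value and that of Smg5 to 39.6%, against a median of 43.5% over all genes that fell. That of Upf1, which was not called, went to 75.1%, against a median of 58.5% over all genes tested. For Upf2 and Smg6, whose loss was mostly late, the half-life is an average over 150 min. The library-wide conversion rate and the median labelled share over genes tested also fell mainly after 60 min.

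A second readout was the T>C rate itself, conversions over covered T positions, which uses no model of the labelled share. It fell for 7 of the 8 factors, again not for Upf1, and for 66.9% of all genes (limma adjusted p under 0.05 over 11459 genes). The median decline was 0.611 per h over the 8 factors and 0.512 per h over all genes. Both readouts come from the same reads.

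Smg5 had T>C rates of 7.38, 3.85, 7.31, 3.37, 1.60 and 1.02% in time order, a decline of 0.759 ± 0.196 per h (SE; limma adjusted p = 0.00105). Upf1 had 3.87, 2.70, 3.87, 2.98, 1.94 and 1.42%, a decline of 0.359 ± 0.114 per h (limma adjusted p = 0.0560). Smg9, with the fewest reads, had 7.36, 4.56, 8.95, 4.24, 2.71 and 1.61%, the last from 90 conversions in 5595 covered T positions (95% Wilson interval 1.31 to 1.97%, counting error only). The T>C rate was higher at 60 than at 30 min for 8 of 8 factors, as it was over all genes, whereas the modelled labelled share was higher at 60 min for 2 of 8 (Upf3a and Smg9).

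Divided by the rate of all genes in the same library, the T>C rate of Smg5 went from 1.82 at 0 min to 0.878 at 150 min, and that of Upf1 from 0.955 to 1.22. Smg1 went from 0.934 to 0.612, Upf2 from 1.25 to 0.754 and Upf3a from 1.47 to 0.784. Smg6 went from 1.34 to 1.19, Smg9 from 1.82 to 1.38 and Upf3b from 0.936 to 0.860. Upf1 was thus the single factor of the 8 whose conversions were higher against the library at the last time than at the first, and these ratios carry no test.

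Without the 150 min library 0 of 8 factors and 2643 genes passed, with declines of 0.639 per h for Smg5 (limma adjusted p = 0.0557), 0.606 per h for Upf3a (0.0656) and 0.579 per h for Smg1 (0.0741), against 0.759, 0.710 and 0.655 per h with it. Upf1 passed without the 30 min library (limma adjusted p = 0.0434) and without the 60 min library (limma adjusted p = 0.00793). Smg6 and Upf3b did not pass without the 0 min library (limma adjusted p = 0.0574 and 0.0671), nor Smg6 without the 120 min library (limma adjusted p = 0.0511).

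**Figure D3:**
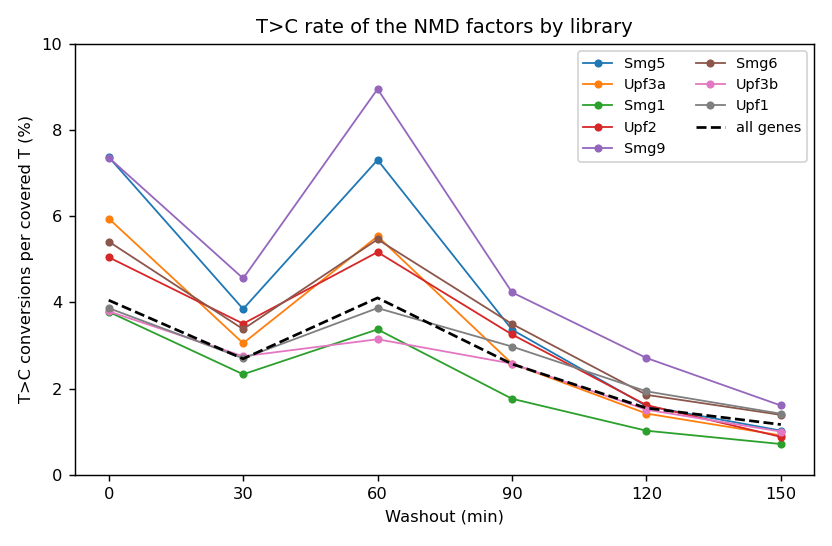
T>C rate (percent of covered T positions) against washout time (min) for the 8 NMD factors and, dashed, over all genes. All 8 factors are higher at 60 than at 30 min, as is the rate over all genes (4.11% against 2.69%).

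The labelled share at 0 min gives another estimate of turnover in the nuclear RNA, with export included. It uses no washout and is the half-life that would reach that share in 4 h at steady state. It was 135 min for Smg9 (122 to 150 min at the posterior quantiles), 145 min for Smg5 (141 to 150), 198 min for Upf3a (187 to 210) and 236 min for Upf2 (224 to 249). It was 241 min for Smg6 (231 to 251), 348 min for Upf1 (335 to 362), 348 min for Smg1 (339 to 358) and 360 min for Upf3b (339 to 384). Smg5 and Smg9 stood lowest, and Upf1, Smg1 and Upf3b highest. Among the 7 that fell over the washout, the estimates differed most for Smg1, at 348 min by uptake and 96.3 min by washout, and came closest for Smg9, at 135 and 153 min.

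Total RNA of the 8 factors did not pass the test for a slope over the washout. Of 15743 genes tested with edgeR's quasi-likelihood test, 0% rose and 0% fell at an adjusted p under 0.05, and 0 of the 8 factors and 21.7% of genes had an unadjusted p under 0.05. DESeq2 called 650 genes and 0 factors. Omission of the 60 min library raised the edgeR calls to 1413 genes, omission of 0 min gave 41 and of 30 min 2, with 0 factors each time. Slopes were negative for 5 factors and positive for 3, with a median of -0.02 log2 per h. The steepest was Upf3b, the X-linked member, at -0.12 ± 0.06 log2 per h (SE; edgeR adjusted p = 0.289). Upf3b had 68.1, 66.9, 62.8, 66.9, 56.3 and 56.3 CPM, so the last 2 libraries were the lowest. All 6 libraries came from doxycycline-treated cells, so no value here bears on Xist induction and this gene.

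Smg5 had 206, 231, 217, 217, 237 and 242 CPM, lowest at 0 min and highest at 150 min, with a slope of 0.07 ± 0.06 log2 per h (edgeR adjusted p = 0.502). Upf1 had 175, 179, 186, 171, 178 and 190 CPM, the narrowest relative range of the 8, with the highest library 1.11 times the lowest. Smg1 had the widest, 318, 282, 272, 236, 285 and 288 CPM, a ratio of 1.35. The median ratio was 1.39 over the genes tested for the labelled share. The range of all 8 factors was thus narrower than that median. Genes were not matched for depth, so this is not read as a trait of the factors. In bulk RNA, fewer cells that make an mRNA and less mRNA per cell cannot be told apart.

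Labelled and unlabelled RNA, as labelled share times CPM, moved unequally. Labelled Smg5 went from 141 to 45.0 CPM while unlabelled Smg5 went from 65.6 to 197 CPM, 3.01 times the start. Labelled Upf3b went from 25.2 to 11.5 CPM with unlabelled Upf3b at 42.9 and 44.8 CPM, 1.04 times the start. Labelled Upf1 went from 66.3 to 56.0 CPM and unlabelled Upf1 from 108 to 135 CPM. For the other 5 factors the unlabelled ratio of 150 to 0 min lay between 1.23 (Smg6) and 2.09 (Smg9), and the labelled ratio between 0.306 (Smg1) and 0.490 (Smg9). These ratios compare 1 library with 1 library.

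**Figure D4:**
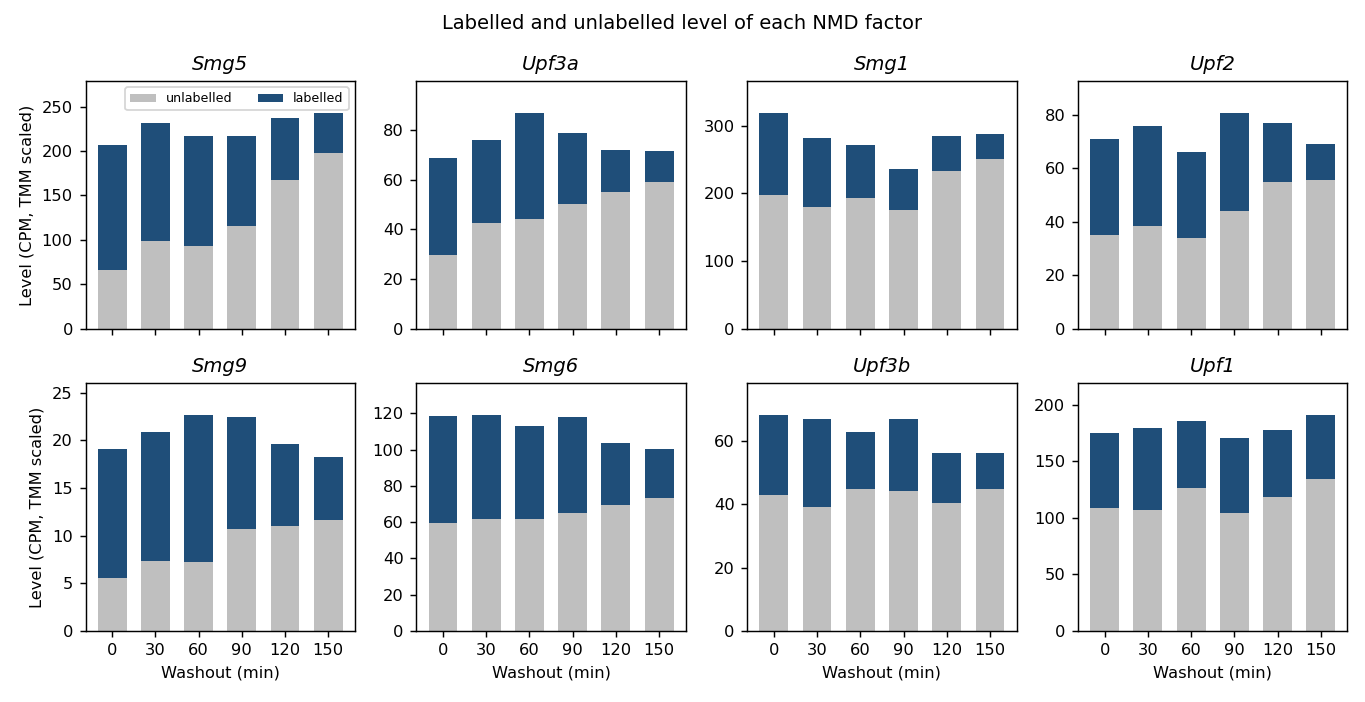
Level of the 8 NMD factors by washout time (min) as stacked bars in CPM, unlabelled RNA in grey and labelled RNA in blue. The Smg5 bars stay between 206 and 242 CPM while the labelled part goes from 141 to 45.0 CPM.

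Per kb of the length in the file, Smg5 was the most abundant factor at 50.6 ± 3.09 CPM per kb (mean ± SD over the 6 libraries, 46.4 to 54.5), followed by Upf1 at 38.9 ± 1.56 (37.0 to 41.2). Then came Upf3b at 24.6 ± 2.12, Upf3a at 20.4 ± 1.76, Smg6 at 19.2 ± 1.39, Smg1 at 18.0 ± 1.71 and Upf2 at 14.2 ± 1.05 CPM per kb, each of which overlapped its neighbours among these 5 over the 6 libraries. Smg9 was lowest at 9.15 ± 0.798 (8.15 to 10.1), below every library of Upf2. The length in the file is that of the annotated transcript used above for 6 of 8, and not for Upf3a and Upf3b.

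Promoters of Upf1, Smg5 and Upf3b, windows around the start taken from RefSeq on GRCm38.p6, are shown as the last and the first in the order with all 6 libraries and the X-linked factor. Capitals mark matches to the motifs searched on both strands, which were chosen after the sequences were seen: GCATGCG (part of the NRF1 motif), ATGGCGG (as in YY1 motifs), the CCAAT box and the TATAAA box. They lie at chr8:70353230-70353529 on the minus strand, chr3:88336010-88336309 on the plus strand and chrX:37110273-37110572 on the minus strand.
Upf1: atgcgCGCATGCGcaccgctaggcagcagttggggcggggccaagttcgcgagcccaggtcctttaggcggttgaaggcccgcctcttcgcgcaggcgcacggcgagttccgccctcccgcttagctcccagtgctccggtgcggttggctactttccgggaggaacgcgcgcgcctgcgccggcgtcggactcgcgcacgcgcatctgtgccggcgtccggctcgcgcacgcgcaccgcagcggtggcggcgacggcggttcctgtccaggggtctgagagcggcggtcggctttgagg
Smg5: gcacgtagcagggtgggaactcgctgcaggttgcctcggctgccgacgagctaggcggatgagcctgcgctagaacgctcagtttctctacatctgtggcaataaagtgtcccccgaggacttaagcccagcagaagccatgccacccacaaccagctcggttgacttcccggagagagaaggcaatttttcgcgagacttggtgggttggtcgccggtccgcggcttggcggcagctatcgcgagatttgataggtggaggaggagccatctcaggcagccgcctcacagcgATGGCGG
Upf3b: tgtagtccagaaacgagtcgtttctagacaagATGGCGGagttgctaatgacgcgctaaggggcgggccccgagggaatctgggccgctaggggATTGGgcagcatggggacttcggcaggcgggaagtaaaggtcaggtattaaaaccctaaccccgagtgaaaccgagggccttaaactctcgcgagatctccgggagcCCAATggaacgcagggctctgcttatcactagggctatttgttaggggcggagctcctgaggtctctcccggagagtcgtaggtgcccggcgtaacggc
The Upf1 promoter is 72.3% G and C with 47 CpG pairs, Smg5 60.7% with 23 and Upf3b 58.7% with 22, against medians of 52.7% and 7 over 32851 promoters. GCATGCG, which can overlap its own reverse complement as it does in Upf1, was in 2 of the 8 (Upf1 and Smg9) and 3.58% of all promoters. ATGGCGG was in 2 of the 8 (Smg5 and Upf3b) and 4.05% of all promoters. CCAAT was in 3 of the 8 (Smg1, Upf3a and Upf3b) and 37.4% of all promoters, and TATAAA in 0 of the 8 and 13.6%. A match is a description of letters and not of binding.

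Other genes of the pathway were read from lists in the same fit, where 52.3% of genes fell. Of 8 further NMD factors, 2 fell and 0 rose, with a median rate of 0.0881 per h over the 8. They were Pnrc2, an adaptor to decapping, at 42.1 min of half-life (limma adjusted p = 5.13e-05), and Smg8, the partner of SMG9, at 53.3 min (limma adjusted p = 6.75e-05). Both half-lives lay below the 83.5 min of Smg5, and the difference was not tested.

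Of 10 exon junction complex genes, 2 fell, Casc3, a core subunit, with 80.5 min (limma adjusted p = 0.00043), and Pym1, which takes the complex apart, with 80.6 min (limma adjusted p = 0.00065). The median rate of the 10 was 0.171 per h. Of 6 genes for termination and cap binding, 1 fell, the release factor gene Gspt2, with 48.0 min (limma adjusted p = 5.17e-05), and the median rate was -0.0177 per h. Of 8 decay enzymes and cofactors, 6 fell, from Dcp1b, a decapping cofactor, with 46.8 min to Edc4, a decapping scaffold, with 173 min (limma adjusted p = 0.0299), and the median rate was 0.298 per h.

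Of 11 transcripts known as NMD targets, 8 were tested and 7 fell, with a median rate of 0.643 per h, above the median of 0.318 per h over the 8 factors. Half-lives ran from 41.5 min for Gadd45a, a stress response gene (limma adjusted p = 5.12e-05), to 97.0 min for Atf3, a stress-induced transcription factor (limma adjusted p = 0.00202). Upp1 was not called, with a rate of -0.143 per h (limma adjusted p = 0.237). Slc7a11 was below the read minimum, and Gas5 and Snhg1 were not analysed here. For total reads, edgeR called 0 of all 15743 genes tested, so none of these lists could hold a called gene.

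The genes with the most similar course of label, by Euclidean distance of ln labelled share over the 6 libraries among 7486 genes outside the lists with at least 500 reads on average, were found for the ends of the order. For Upf1 they were Map4k4 (distance 0.0726), Trappc4 (0.0921) and Eif4h (0.0966), and for Smg5 they were Emc3 (0.0600), Haus6 (0.0697) and Ccdc93 (0.0755). Map4k4 had labelled shares of 39.3% at 0 min and 27.9% at 150 min, and Emc3 of 66.2% and 19.0%.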

How the data were processed

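Nuclear RNA of 6 libraries, 1 per washout time, had been labelled with 4sU, treated with iodoacetamide, made into stranded total RNA libraries and sequenced in pairs, per the labels' protocols. STAR 2.5.2b and mm10 are named in the submitters' processing notes; for the counter, annotation and use of strand, nothing is given in the sources used here. The deposited table holds read counts per gene, counts of T>C conversions, the coverage of T positions as a signal, a gene length, and the labelled fraction as a posterior mean, mode and quantiles, per the file headers. In the table, 18 columns of per-sample values were not used.

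Rates were fitted with limma 3.58.1 on the natural log of the labelled fraction and of the T>C rate, over genes with at least 100 reads on average, against time. Total counts were tested with edgeR 4.0.16 (TMM, quasi-likelihood), with DESeq2 1.42.0 as an alternative, in R 4.3.3. The tests were tested on simulated data. Of 23281 gene IDs, 23223 matched GENCODE M21, used for transcript features. Calls used an adjusted p under 0.05. The 8 members are all named; from each pathway list, the called genes with the shortest and the longest half-life and genes not measured are named by rule, and Upp1 was added after its values were seen. From the list of further NMD factors, 1 gene was taken out and is not reported here. Members and lists were chosen with earlier results of these data known. Alternatives were other fractions, scales, weights, minima, normalizations, exchanged or omitted times, and each library left out. Leaving out libraries in the comparison of pairs was chosen after seeing the data.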

Additional observations from a re-analysis of the deposited data

How the results depend on the processing

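No paired analysis was possible because each washout time has 1 library. With libraries weighted by posterior width, 2951 genes and 3 factors lost label (5996 and 7 as reported). With a minimum of 500 reads 3739 genes and 6 factors lost label. Without the 30 and 60 min libraries 5386 genes and 4 factors did. Leaving out 1 library at a time gave 3594 to 6318 genes and 3 to 7 factors losing label. These were 5354 genes and 4 factors without 30 min, 5088 and 4 without 120 min, and 3594 and 3 without 150 min. The same runs gave 2643 to 9213 genes and 0 to 8 factors with a falling T>C rate, and 5 to 17 pairs whose interval left out 0. They gave 0 to 1413 genes with a slope in total reads (1413 without 60 min). That last count, 0 as reported, was 399 with no filter, 2884 with the 30 and 60 min times exchanged and 650 with DESeq2; no factor was called in any of these. The rates of label loss of the 8 factors kept their sign in each alternative run, while 25 values lost their call, 10 of them for Upf3b, 8 for Smg6, 5 for Smg9 and 2 for Upf2. The total read slopes of 5 factors changed sign when 1 library was left out, between -0.00189 and 0.0419 log2 per h for Upf1, -0.0144 and 0.0651 for Upf2, -0.0984 and 0.0355 for Upf3a, -0.111 and 0.0198 for Smg1, and -0.125 and 0.0380 for Smg9. The cause was not tested. Depth limits Smg9 most, at 336 to 592 reads per library, and it was not tested at the 500-read minimum.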
